A study of Homo sapiens with 12 samples.

Results

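Alternative cassette exons that keep the reading frame were taken from the deposited splicing table of HEK293T, an established human line of embryonic kidney origin. A cassette exon is an internal exon that a transcript either includes or skips. An exon was taken when its listed length was above 27 nt and divisible by 3, when it had at least 20 reads for inclusion and skipping together in each of the 12 libraries, and when its mean percent spliced in (PSI, the percent of those reads that include the exon) lay between 10 and 90. This gave 4684 exons, of 114125 cassette exons above 27 nt with that many reads and of 721551 splicing events in the table. The mean PSI of the same libraries chose the exons, so levels near 10 and 90 are limits of the choice. LINC01547 (mean PSI 10.0) and WDR26 (10.0) lay just inside the lower limit, and CD59 (9.99) and TSC22D2 (9.99) just outside it. PABPC1L (89.998) lay just inside the upper limit and KIAA0513 (90.001) just outside it.

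Polyadenylated RNA was sequenced 48 hours after cells received 2 plasmids, 1 for an effector and 1 for a guide RNA (200 ng each). Every effector contains dCasRx, a CasRx protein that is guided to RNA but no longer cuts it: dCasRx alone, dCasRx-RBM25, which adds RBM25, or RBFOX1N-dCasRx-C, which adds portions of RBFOX1. The guide was nontargeting (NT), directed at MAPT exon 10 to activate it, or directed at CD46 exon 13 to repress it. The 6 groups of 2 libraries were dCasRx_NT, RBM25_NT, RBM25_MAPT, RBM25_CD46, RBFOX1N_NT and RBFOX1N_MAPT, and the series text calls the replicates biological. No library of untransfected cells and none of dCasRx with a targeting guide was analysed here, so the level under dCasRx_NT is the only reference for an effector. The cells overexpress each effector from a transfected plasmid, and every value is a mean over transfected and untransfected cells of a culture.

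An exon whose length is a multiple of 3 can be left out without moving the codons that follow, so both forms of the transcript can encode protein, one with and one without a short internal segment. Such exons are common among regulated exons of signalling, cytoskeletal and trafficking proteins. RBFOX proteins bind UGCAUG in pre-mRNA and are known to promote inclusion from sites downstream of an exon and skipping from sites upstream of it. RBM25 is a splicing factor that associates with U1 snRNP proteins and is known to bind CGGGCA. Exon 10 of MAPT encodes a microtubule-binding repeat of tau, and exon 13 of CD46 sets which cytoplasmic tail this complement regulator carries.

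Sequences are shown for CD46 exon 13, a guide target, and for 8 coding exons that differed between the RBM25 and RBFOX1N libraries, 4 in each direction. They were read from GENCODE release 29 transcripts (GRCh38) on the sense strand, 5′ to 3′. Capitals mark the last 3 bases of the exon, which abut the 5′ splice site, except in CD46, shown to base 52, where they mark the stop codon.
CD46: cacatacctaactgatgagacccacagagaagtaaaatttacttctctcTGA
MYO9B: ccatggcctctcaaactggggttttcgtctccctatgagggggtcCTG
DOCK6: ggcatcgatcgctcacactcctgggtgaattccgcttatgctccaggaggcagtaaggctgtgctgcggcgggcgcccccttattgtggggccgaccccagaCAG
LMO7: actctttcaaaagatttatggtgagaaTGG
ABI1: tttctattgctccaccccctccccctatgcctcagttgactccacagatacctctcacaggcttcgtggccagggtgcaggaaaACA
NUMB: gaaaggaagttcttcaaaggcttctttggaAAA
KMT2C: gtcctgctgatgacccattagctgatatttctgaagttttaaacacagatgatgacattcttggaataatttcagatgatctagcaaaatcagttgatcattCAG
TPCN2: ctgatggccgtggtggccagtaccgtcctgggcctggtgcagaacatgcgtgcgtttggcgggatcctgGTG
MGAT5B: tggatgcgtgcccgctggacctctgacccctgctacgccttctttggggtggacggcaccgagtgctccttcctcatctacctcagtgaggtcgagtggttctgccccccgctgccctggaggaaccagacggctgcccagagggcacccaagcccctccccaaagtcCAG

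MAPT exon 10 (93 nt) was fully coding in all 9 coding transcripts that carry it, and 3 coding transcripts skip it. CD46 exon 13 (chr1:207790253-207790345, plus strand) also has 93 nt, but only its first 49 bases extend the reading frame of the upstream exon: bases 50 to 52 are a stop codon and 41 untranslated bases follow. So the length rule admits an exon whose inclusion ends the protein, and 3 coding transcripts carry this exon against 7 that skip it. The exons shown for MYO9B (48 nt), LMO7 (30 nt), ABI1 (87 nt) and NUMB (33 nt) had no stop codon in the frame of the transcripts that skip them. The printed exons differed in base composition: GC content was 33.3% in LMO7, 36.4% in NUMB and 35.2% in KMT2C, against 63.8% in DOCK6, 65.3% in TPCN2 and 65.5% in MGAT5B. Neither GCATG nor CGGGCA occurs in any of them on the sense strand. The searches cover exon bases only; flanking introns were not analysed here.

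Among the 4684 exons the median length was 111 nt (quartiles 78 and 153), from 30 nt in C11orf57 to 5649 nt in the noncoding JPX. Most were included in most transcripts: 2992 (63.9%) had a mean PSI of 70 to 90, and 626 (13.4%) had one of 10 to 30. They lay in 3158 named genes, of which 2168 held 1 such exon and 322 held 3 or more. In GENCODE release 29, 2913 (62.2%) were fully coding in the coding transcripts that carry them, 175 (3.74%) were untranslated, and 909 (19.4%) had no annotated exon with both ends. Of those 909, 753 shared 1 end with an annotated exon and 65 overlapped none. The table lists 1 length per event but more than 1 start or end for some: 3402 exons (72.6%) had a single pair of ends, 428 had several ends that all give multiples of 3, and 854 (18.2%) had at least 1 other listed end that would shift the frame. For the last class the inclusion reads can come from a form that does not keep the frame.

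The 7274 alternative cassette exons of the same depth and PSI range whose length is not a multiple of 3 serve as the class most like these. Frame-keeping exons made up 39.2% of the exons with a mean PSI of 10 to 90, 38.4% of those above 90 and 36.0% of those below 10. Coding transcripts of both forms were annotated for 1699 (36.3%) of the frame-keeping and 1240 (17.0%) of the frame-shifting exons. Where a transcript that skips the exon gave the frame, a stop codon stood in that frame in 133 of 1378 frame-keeping exons (9.65%) and in 352 of 821 frame-shifting ones (42.9%). Of the 3093 frame-keeping exons with a known phase, 55.2% began at the first base of a codon, against 37.5% of 4393. The phase was read from the first fully coding transcript that gave it, and agreement with other transcripts was not checked. Median GC content (49.6%) and the share with GCATG (11.4%) were within 1 percentage point of those in the frame-shifting class (49.2% and 11.2%). These are counts of annotation and carry no test.

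The total gene count per library was 32487927 to 53985468, and the median exon had 133.5 reads per library. RBM25 was at 40800 to 56897 CPM (gene counts scaled to equal library totals) in the 6 libraries with dCasRx-RBM25 and at 200 to 381 in the others, which matches their labels. RBFOX1 was at most at 0.129 CPM in all 12, so the counted part of that gene does not show the RBFOX1N construct. VIM (621 to 835 CPM) and NEFM (127 to 177), which this line expresses, were present, and PTPRC (blood), CDH5 (endothelium) and MYH1 (muscle) were each at most at 0.0695 CPM. Some markers used for other tissues were not near 0, such as COL1A1 (20.6 to 33.3 CPM) and GAD1 (12.5 to 16.7). The median SD between the libraries of a group was 2.98 PSI points, and it was 3.47 in dCasRx_NT and 2.74 to 3.04 in the other groups. The SD that read sampling alone would give had a median of 3.35 points. An SD taken from 2 libraries tends to fall below the true spread, so these medians cannot be set against each other. The quasi-binomial model used below put the typical variance over all events at 1.40 times that of read sampling. Intervals below cover counting error only.

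The MAPT guide raised exon 10 with RBM25. PSI was 39.6 and 46.1 in the RBM25_MAPT libraries and 2.87 and 3.12 in the RBM25_NT libraries. It was 4.31 and 1.05 with dCasRx_NT and 2.94 and 2.80 with RBM25_CD46. The guided RBM25 libraries stood above the other 10. The difference from RBM25_NT was 39.8 points (SE 3.21, n = 2 libraries against 2; quasi-binomial model over all events, Benjamini-Hochberg adjusted p = 0.000255), and it was the only one of 4684 frame-keeping exons called in this comparison. Of all 100383 events tested, 0.000996% were called. An exon counts as called when the adjusted p is below 0.05 and mean PSI differs by 10 points or more. The call held without any single library of either group (36.6 to 43.1 points, adjusted p 0.000826 to 0.00843). limma on logit PSI gave an adjusted p of 0.226 and no call. The mean PSI over all libraries was 11.4, and the exon is in the class only through the guided ones.

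With RBFOX1N the same guide gave values of 10.5 and 19.3 in the RBFOX1N_MAPT libraries and 1.33 and 2.69 in the RBFOX1N_NT libraries. The groups did not overlap, but the difference of 12.9 points (SE 2.91) was not called (adjusted p = 0.518). The gain with RBM25 exceeded that with RBFOX1N by 26.9 points (SE 4.33). The interaction term, which compares the gains as odds ratios of inclusion, gave p = 0.210 (adjusted p = 0.966) in the quasi-binomial model, which did not pass the threshold.

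The CD46 guide was paired with RBM25 only. PSI of CD46 exon 13 was 15.47 and 17.41 in the RBM25_CD46 libraries, and 37.6 and 32.1 in the RBM25_NT libraries. The other 8 libraries lay at 23.4 to 35.9, so the guided libraries were the lowest of the 12. The difference was -18.4 points (SE 2.60) and had the smallest p-value of all 4684 exons (4.70e-06), but the adjusted p over all events was 0.0787, and the exon was not called. In libraries without the CD46 guide the exon stood at 25.2 and 23.4 in RBFOX1N_MAPT and at 35.9 and 34.7 in dCasRx_NT; the comparison of the effectors did not call it (5.88 points, adjusted p = 0.116).

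Outside the targeted exons no frame-keeping exon was called for a guide. In the RBM25_CD46 and RBFOX1N_MAPT comparisons with their NT groups, 0 exons were called, where 0.0% of all events were. At an unadjusted p under 0.05 in the quasi-binomial model, there were 369 and 371 exons (7.88% and 7.92%, against 5.91% and 5.93% of all events), and 319 in the RBM25_MAPT comparison (6.81%, against 5.82%). limma on logit PSI called 0 in all guide comparisons. The largest differences were not the targeted exons: among the other 4682, 351 differed by at least 10 points in the RBM25_MAPT comparison, with a lowest adjusted p of 0.492. The median absolute difference of those 4682 exons was 2.91 points. In the RBFOX1N_MAPT comparison, leaving out RBFOX1N_MAPT replicate 1 gave 1 call, a 93 nt exon of TFB1M (-43.6 points, adjusted p = 0.000172), which with all libraries stood at -25.3 points (adjusted p = 0.476). It was singled out after its values were seen.

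The effectors were compared over the NT and MAPT guides, which both had: 4 RBM25 libraries against 4 RBFOX1N libraries. Of the frame-keeping exons, 551 were called (11.8%), 226 with a higher and 325 with a lower PSI in the RBM25 libraries, where 2.87% of all events tested were called (1.33% higher and 1.54% lower). The frame-shifting class gave 930 of 7274 (12.8%), and the shares of the classes were not tested against each other. An event with a PSI near 0 or 100 can move 10 points in 1 direction at most, so the share over all events is a background and not a like class. With the NT guide only (2 libraries against 2), 333 exons were called, 121 higher and 212 lower, where 1.67% of all events were called (0.694% higher and 0.975% lower). By mean PSI over the 12 libraries, which the compared libraries enter, 8.47% of 626 exons at 10 to 30 were called, 15.1% of 383 at 30 to 50, 20.4% of 683 at 50 to 70 and 10.1% of 2992 at 70 to 90; these shares were not tested. Differences were moderate for most, with a median of 15.8 points among the higher and -14.4 points among the lower; 8 and 9 exons reached 30 points. The largest of all, 59.5 points, was an 87 nt exon whose gene has no symbol in the table.

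**Figure D1:**
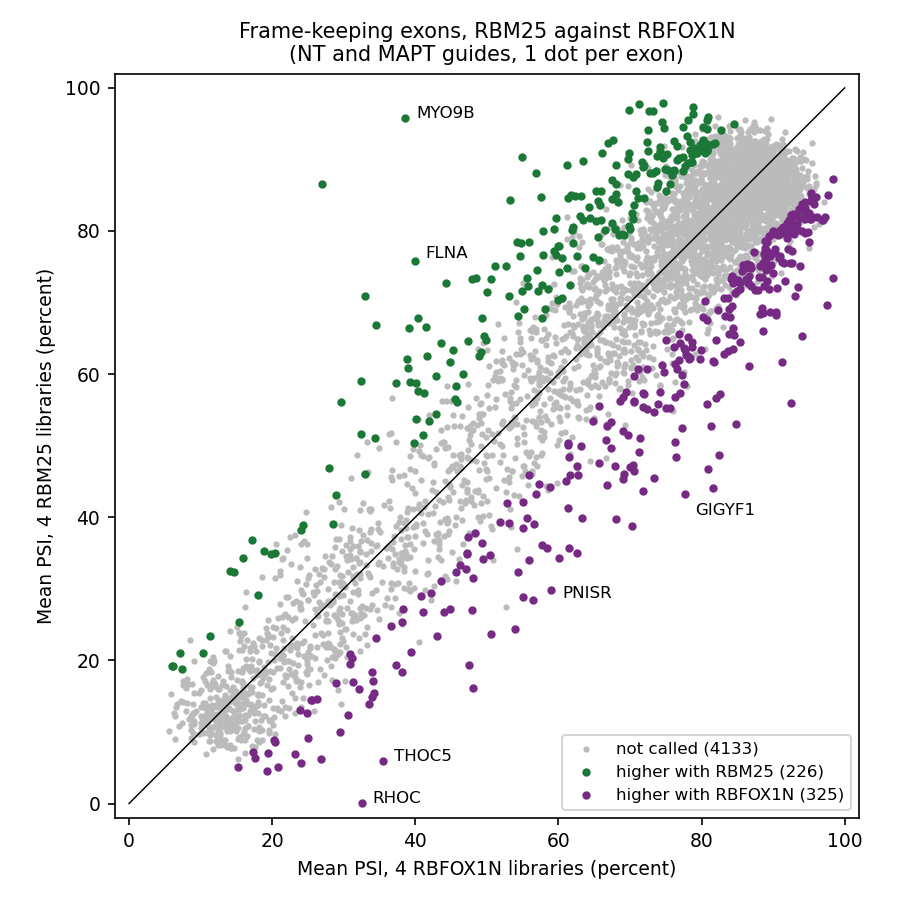
Mean PSI in percent of each frame-keeping exon in the 4 RBFOX1N libraries (x) and the 4 RBM25 libraries (y), NT and MAPT guides. Called exons are coloured (226 above and 325 below the diagonal), and named exons such as MYO9B (95.8 against 38.6) and RHOC (0.113 against 32.5) lie far from it.

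The named exon with the largest difference was a 48 nt exon of MYO9B, an unconventional myosin. Its PSI was 96.7, 95.7, 95.2 and 95.6 in the RBM25 libraries and 42.5, 36.5, 39.2 and 36.1 in the RBFOX1N libraries. The dCasRx_NT libraries, at 87.7 and 97.1, lay with RBM25. The difference was 57.2 points (SE 2.45, n = 4 against 4). Against dCasRx_NT the exon fell by 52.9 points with RBFOX1N_NT (adjusted p = 1.16e-05), while RBM25_NT differed by 3.82 points (adjusted p = 0.377).

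FLNA encodes filamin A, which cross-links actin filaments. Its 198 nt exon (chrX:154366024-154366221), also listed with 201 nt, had a PSI of 79.2, 73.1, 77.3 and 73.4 in the RBM25 libraries and 41.7, 37.4, 38.5 and 42.1 in the RBFOX1N libraries. Both dCasRx_NT libraries stood at 79.8 and 80.2, again with RBM25. The difference was 35.8 points (SE 1.47; adjusted p = 7.99e-10) on 683 to 1385 reads per library. The exon of the listed length is not annotated, though 1 of its ends is. The FLNA gene itself stood lower in the RBM25 libraries by a log2 difference of -0.66 (SE 0.09; edgeR adjusted p = 8.14e-05).

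ABI1, a subunit of the actin-regulating WAVE complex, differed from dCasRx toward both sides. Its 87 nt exon had a PSI of 76.2, 70.2, 74.3 and 70.1 with RBM25, 63.0 and 63.1 with dCasRx_NT, and 47.8, 48.1, 41.9 and 39.3 with RBFOX1N. The effectors differed by 28.4 points (SE 1.86; adjusted p = 1.20e-07). RBFOX1N_NT was 15.1 points below dCasRx_NT (adjusted p = 0.0126), and the 10.2 points by which RBM25_NT exceeded it were not called (adjusted p = 0.0671). A 93 nt exon of PPP2R5B, a regulatory subunit of protein phosphatase 2A, also had dCasRx_NT (76.7 and 73.6) between RBM25 (87.8 to 92.4) and RBFOX1N (59.1 to 65.7), with 28.1 points between the effectors (SE 1.83; adjusted p = 1.80e-07).

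Other exons with a higher PSI in the RBM25 libraries lay in DOCK6, an exchange factor for small GTPases (105 nt, 70.9 ± 4.39 against 33.0 ± 6.96, SD, n = 4 each), and in IRF9, a transcription factor of interferon signalling (342 nt, 90.4 ± 7.93 against 54.9 ± 11.6). LMO7, a LIM-domain adaptor, held a 30 nt exon at 84.3 ± 8.32 against 53.2 ± 11.3. PLXNB1, a semaphorin receptor, PLEKHG3, a guanine nucleotide exchange factor, STAG3, a cohesin subunit, ZNF692, a zinc finger protein, and the noncoding LOXL1-AS1 completed the 12, with differences of 27.1 to 32.4 points. In both dCasRx_NT libraries the IRF9 exon was at 100, as in 1 RBM25 library. These levels and the RBM25 mean of 90.4 lie above the limit of 90, so the place of this exon in the class may rest on the RBFOX1N libraries. The calls of PLEKHG3 and LOXL1-AS1 did not hold without some libraries: PLEKHG3 was lost without RBFOX1N_NT replicate 2 (adjusted p = 0.0716) or RBFOX1N_MAPT replicate 1 (0.0523), and LOXL1-AS1 without RBM25_NT replicate 1 (0.0701), RBM25_MAPT replicate 1 (0.0695) or 2 (0.0537), RBFOX1N_NT replicate 2 (0.151) or RBFOX1N_MAPT replicate 1 (0.105). DOCK6 (105 and 337 nt) and PLXNB1 are also listed with ends that shift the frame.

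PNISR, an arginine-serine-rich nuclear protein, held a 54 nt exon with a lower PSI in the RBM25 libraries. It had a PSI of 26.6, 29.6, 30.5 and 32.4 with RBM25 and 55.9, 57.3, 65.4 and 57.5 with RBFOX1N. Here the dCasRx_NT libraries, at 54.4 and 53.8, lay with RBFOX1N. The effectors differed by -29.2 points (SE 1.5; adjusted p = 7.17e-09) on 549 to 1218 reads per library. RBM25_NT fell by 25.9 points from dCasRx_NT (adjusted p = 2.44e-05), and RBFOX1N_NT was 2.54 points above it (adjusted p = 0.706).

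GIGYF1, an adaptor of a translational repressor complex, held a 105 nt exon of the same kind. Its PSI was 43.7, 41.2, 47.6 and 40.8 with RBM25 and 81.0, 70.4, 86.6 and 72.7 with RBFOX1N. The dCasRx_NT libraries, at 73.7 and 73.7, lay within the RBFOX1N range. The effectors differed by -34.4 points (SE 3.21; adjusted p = 5.43e-06). This event is listed with lengths of 105, 254, 279 and 570 nt, so its frame depends on the end used. TPCN2, an endolysosomal cation channel (72 nt, also listed with 151 nt, 46.7 ± 8.01 against 80.8 ± 5.33), and KMT2C, a histone methyltransferase (105 nt, 48.7 ± 9.73 against 82.5 ± 4.14), also had dCasRx_NT libraries at or above 74.5.

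In RHOC, THOC5 and NUMB it was RBFOX1N that stood apart from the rest. A 159 nt untranslated exon of RHOC, a small GTPase, had a PSI of 33.4, 32.2, 34.4 and 30.2 in the RBFOX1N libraries and of 0 to 0.45 in the other 8 libraries. The RBM25 libraries lay below the RBFOX1N ones by 32.4 points (SE 1.33). This exon carries no coding sequence, and it is in the class only through the RBFOX1N libraries (mean PSI 10.95 over all 12). THOC5, a subunit of an mRNA export complex, included a 33 nt exon at 33.9, 31.7, 42.9 and 33.8 with RBFOX1N and at 1.76 to 7.65 in the other libraries (-29.6 points, SE 2.08). It too is in the class only through the RBFOX1N libraries (mean PSI 15.6 over all 12), so no test is given for RHOC and THOC5 here. NUMB, an endocytic adaptor that inhibits Notch signalling, included its 33 nt exon at 47.0, 48.1, 56.7 and 64.3 with RBFOX1N and at 20.4 to 32.5 elsewhere (-29.6 points, SE 3.46; adjusted p = 4.58e-05).

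The other exons with a higher PSI in the RBFOX1N libraries lay in BAZ2A, a chromatin remodelling subunit (-37.5 points), IL18BP, a secreted inhibitor of interleukin 18 (-36.6), MED22, a Mediator subunit (-31.8), MICAL1, an actin-oxidizing enzyme (-31.6), and MGAT5B, a glycosyltransferase (-29.6). MED22 and MICAL1 are also listed with ends that shift the frame. The IL18BP exon is annotated only in transcripts marked for nonsense-mediated decay. MICAL1 lost its call without RBM25_NT replicate 2 (adjusted p = 0.0629), RBM25_MAPT replicate 1 (0.0749), RBFOX1N_NT replicate 1 (0.0759) or RBFOX1N_MAPT replicate 2 (0.0722). The 21 other named exons of the 24 kept their call without any single library. By limma, PLEKHG3 (adjusted p = 0.0773), LOXL1-AS1 (0.0895), MICAL1 (0.0769) and LMO7 (0.0597) were not called, and the other 20 were. The 24 include RHOC, THOC5 and MYO9B, whose calls are no support because they are in the class only through the RBFOX1N libraries. Membership without the compared libraries was not checked for every other named exon.

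Against dCasRx_NT fewer exons were called, with 2 libraries on each side. With RBM25_NT there were 172 (3.67%), 45 higher and 127 lower, where 0.732% of all events were called (0.29% higher and 0.442% lower), and the frame-shifting class gave 240 (3.30%). Among the higher were ATP5F1, an ATP synthase subunit (126 nt, 73.9 and 75.9 against 23.5 and 43.2), KIF24, a kinesin (216 nt, 84.0 and 87.1 against 57.8 and 47.7), and HPS5, a subunit of a lysosome biogenesis complex (78 nt, 93.6 and 84.2 against 61.3 and 68.9). Among the lower were MYCBP2, a ubiquitin ligase (108 nt, 42.9 and 62.2 against 91.7 and 83.1), NFKBIZ, a nuclear regulator of NF-kappa-B (111 nt, 58.04 and 59.79 against 89.1 and 94.2), and NEXN, an actin-binding protein (42 nt, 46.7 and 47.7 against 77.1 and 78.4). MYEF2, MSH5, ADAT1, BCL11A and KRBA1 were also higher, by 20.4 to 25.3 points, and TPCN2, LINS1, GIGYF1, USP53 and PRDM15 were lower, by differences of -29.3 to -40.5 points. ADAT1 (117 and 146 nt) and BCL11A (522, 674 and 802 nt) are also listed with ends that shift the frame, as are TPCN2 and GIGYF1.

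These calls rest on few libraries and on the test. limma on logit PSI called 7 exons and 0 of the 16 named ones, and a fit of only these groups called 60 exons and, of the 16, GIGYF1 alone. Of the 16 named exons, 0 kept the call each time 1 library was left out: 12 were lost without dCasRx_NT replicate 1, 15 without dCasRx_NT replicate 2, 12 without RBM25_NT replicate 1 and 10 without RBM25_NT replicate 2, with adjusted p values up to 0.382. The count of exons called was 107, 66, 98 and 100 without these libraries in the same order. Pooling the 3 RBM25 groups against dCasRx_NT gave 217 calls, 60 higher and 157 lower, of which 139 were among the 172; of all events 1.07% were called there (0.466% higher and 0.603% lower). The dCasRx_NT libraries had the fewest reads for these exons (median 114 and 108, against 120 to 165 in the others) and the widest spread between replicates; their part in the calls was not tested.

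With RBFOX1N_NT, 213 exons were called against dCasRx_NT (4.55%), 68 higher and 145 lower, where 1.15% of all events were called (0.608% higher and 0.539% lower), and the frame-shifting class gave 334 (4.59%). Besides RHOC and THOC5, the higher exons included RBM15, an RNA-binding adaptor of the methylation of adenosine in RNA (111 nt, 71.7 and 65.4 against 45.5 and 28.1), CBX7, a Polycomb protein (66 nt, 100 and 88.6 against 60 and 59.82), and SYNJ2, a phosphoinositide phosphatase (84 nt, 94.5 and 91.8 against 78.0 and 47.9). Besides MYO9B and FLNA, the lower exons included KMT2B, a histone methyltransferase (90 nt, 36.5 and 44.2 against 80.2 and 68.2), SYVN1, a ubiquitin ligase of the endoplasmic reticulum (174 nt, 45.4 and 46.7 against 71.8 and 83.4), and FNIP1, a partner of folliculin (84 nt, 19.3 and 22.0 against 50.1 and 54.3). The remaining named exons were those of C1orf109, NDUFAF6 and OSBPL6, higher by 28.1 to 32.8 points, and of H1FX-AS1, IRF9 and RTN2, lower by differences of -32.9 to -39.5 points. C1orf109 (123 and 154 nt), RTN2 (219 and 692 nt) and H1FX-AS1 (372, 379, 487 and 537 nt) are also listed with ends that shift the frame.

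Of these 16, 7 kept the call whichever library was left out; the losses were 7 without dCasRx_NT replicate 1, 8 without dCasRx_NT replicate 2, 7 without RBFOX1N_NT replicate 1 and 6 without RBFOX1N_NT replicate 2, and the count of exons called was 139, 83, 132 and 85. RBM15 lost its call only without dCasRx_NT replicate 2 (adjusted p = 0.216), and FNIP1, CBX7 and NDUFAF6 lost theirs without each of the 4. MYO9B, FLNA, RHOC, THOC5, KMT2B, RTN2 and SYVN1 were the 7 that held. By limma only 4 of the 16 were called (MYO9B, FLNA, RHOC and THOC5; 24 exons in all), and KMT2B (adjusted p = 0.0706), RTN2 (0.0855) and SYVN1 (0.0749) were not. A fit of only these groups called 106 exons and 9 of the 16. RHOC, THOC5 and MYO9B are in the class only through the RBFOX1N libraries, so their calls in these counts are no support. Pooling both RBFOX1N groups against dCasRx_NT gave 296 calls, where 1.58% of all events were called (0.787% higher and 0.793% lower). Both comparisons share the dCasRx_NT libraries, so their values are not independent. FNIP1 was also low with RBM25_NT, at 30.7 and 25.6.

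**Figure D2:**
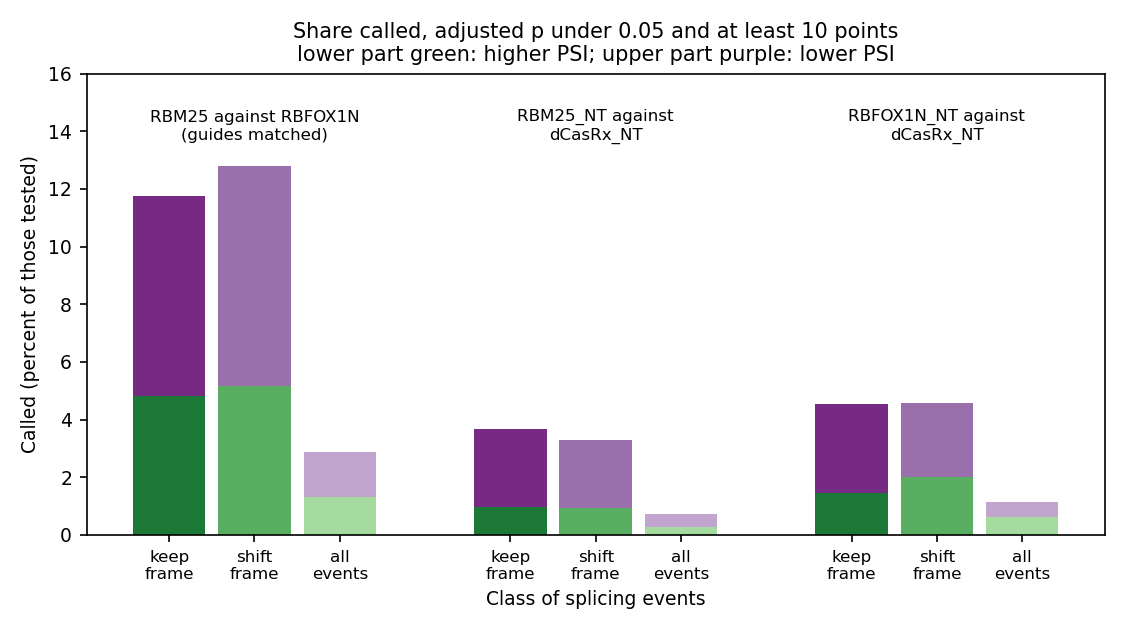
Percent of exons called (adjusted p under 0.05 and at least 10 points) among the 4684 frame-keeping exons, the 7274 frame-shifting exons and all 100383 events, with higher PSI below and lower PSI above in each bar. Frame-keeping and frame-shifting exons stand at like heights in each comparison (11.8% and 12.8% for RBM25 against RBFOX1N).

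Host genes were grouped by function in lists chosen with earlier results of these data known, so their counts are descriptions. In the comparison of the effectors, exons in genes of the cytoskeleton and cell adhesion were called most often among the 6 lists: 28 of 109 (25.7%), 13 higher and 15 lower in the RBM25 libraries, against 11.8% of all frame-keeping exons. MYO9B, FLNA, LMO7 and NUMB belong to it. In genes known for RBFOX-regulated exons, 20 of 88 (22.7%) were called, 9 higher and 11 lower; MYO9B, FLNA, ABI1 and BIN1 are among them. The median difference was -0.19 points in the first list and 0.57 in the second, against -0.51 over all 4684 exons.

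In genes of membrane traffic and the Golgi, 17 of 105 exons (16.2%) were called, 13 of them lower with RBM25. They included a 39 nt exon of SEC31A, a COPII coat protein (28.9 ± 5.08 against 55.0 ± 3.23, SD, n = 4 each), a 45 nt exon of EXOC1, an exocyst subunit (35.7 ± 3.43 against 61.4 ± 3.28), and a 129 nt exon of BIN1, which shapes membranes (23.7 ± 1.26 against 50.6 ± 6.53). In the other direction, a 45 nt exon of TBC1D23, a tethering adaptor at the Golgi, was at 75.1 ± 6.31 with RBM25 and 52.7 ± 3.25 with RBFOX1N. The adjusted p of these 4 exons ranged from 2.98e-05 (BIN1) to 0.000915 (EXOC1).

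In genes of chromatin and transcription, 21 of 137 exons (15.3%) were called, 16 lower and 5 higher with RBM25. A 45 nt exon of the acetyltransferase CREBBP was at 62.8, 58.6, 53.1 and 52.0 with RBM25 and at 86.7, 84.1, 76.9 and 80.6 with RBFOX1N (-25.4 points, SE 2.13; adjusted p = 9.73e-07). The lowest RBFOX1N library stood above the highest RBM25 library. A 51 nt exon of TCF7L2, a transcription factor of Wnt signalling, stood at 34.2 ± 2.54 against 60.1 ± 2.73 (adjusted p = 1.45e-05).

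In RNA processing factors, 7 of 61 exons (11.48%) were called, 5 lower and 2 higher with RBM25, near the 11.8% of all frame-keeping exons; PNISR is 1 of them. A 57 nt untranslated exon of EIF4G1, the scaffold of the cap-binding complex, was at 46.3, 47.9, 46.7 and 41.3 with RBM25 and at 73.5, 73.1, 74.0 and 72.6 with RBFOX1N (-27.8 points, SE 1.14; adjusted p = 6.58e-10). TIA1, itself a splicing regulator, included a 33 nt exon at 44.4 ± 3.50 against 66.8 ± 2.13 (adjusted p = 4.72e-06). In kinases and phosphatases, 9 of 98 (9.18%) were called, 4 higher and 5 lower, among them a 156 nt exon of the kinase FYN at 26.8 ± 3.75 against 44.0 ± 2.75 (adjusted p = 1.92e-06) and a 267 nt exon of FGFR1 at 58.8 ± 7.37 against 40.1 ± 3.16 (adjusted p = 0.00332).

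Against dCasRx_NT the same lists gave smaller counts. With RBFOX1N_NT, 13 of 109 cytoskeleton exons were called (2 higher and 11 lower) and 13 of 88 exons in genes with known RBFOX-regulated exons (2 higher and 11 lower), against 4.55% of all frame-keeping exons. With RBM25_NT the counts were 6 of 109 (1 higher and 5 lower) and 6 of 88 (0 higher and 6 lower), against 3.67%. In the remaining lists, RNA processing gave 4 of 61 exons with RBM25_NT (6.56%) and 1 with RBFOX1N_NT (1.64%). Membrane traffic gave 1 of 105 (0.952%) and 6 (5.71%), and chromatin and transcription 7 of 137 (5.11%) and 8 (5.84%). Kinases and phosphatases gave 3 of 98 (3.06%) and 4 (4.08%). These shares lay on both sides of the 3.67% and 4.55% of all frame-keeping exons.

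The exons called in each direction differed in what they are made of. Those with a lower PSI under RBFOX1N_NT than under dCasRx_NT had a median length of 150 nt and a median GC content of 58.6%, and 7.59% of them had at most 60 nt. Those with a higher PSI had a median length of 76.5 nt and a median GC content of 51.2%, and 30.9% had at most 60 nt. Exons not called had a median length of 111 nt and a median GC content of 49.3%. CGGGCA stood in 9 of the 113 lower exons with sequence (7.96%), in 1 of 60 higher ones (1.67%) and in 2.39% of those not called. GCATG stood in 19 of the 113 lower (16.8%), 3 of the 60 higher (5.0%) and 11.3% of the exons not called. These motif shares are per exon and not per base, and a longer exon has more places where a motif can stand. With RBM25_NT against dCasRx_NT, the lower exons likewise had the greater median length (141 nt, against 81 nt for the higher ones). They also had the smaller share of at most 60 nt (9.45% against 24.4%) and the larger share with GCATG (16.3% against 9.68%). Other features went the opposite way there: median GC content was 47.8% in the lower and 50.0% in the higher exons. CGGGCA stood in 3 of 104 lower exons with sequence (2.88%) and in 2 of 31 higher ones (6.45%). In the comparison of the effectors, CGGGCA was in 11 of 167 exons higher with RBM25 (6.59%), 5 of 273 lower ones (1.83%) and 2.40% of those not called, and 36.6% of the higher ones with known phase began at the first base of a codon, against 57.5% of the lower. These shares rest on exons chosen by their difference and carry no test. Called exons also had more reads than those not called. With RBFOX1N_NT the median was 299 in the lower and 355.75 in the higher exons, against 127.5 in those not called. With RBM25_NT it was 317 and 243, against 129. The part of read depth in these contrasts was not tested.

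Several called exons could lie in 1 gene. In the comparison of the effectors 45 genes held at least 2 called frame-keeping exons, and in 32 of them all moved in 1 direction. LTBP4, which binds latent TGF-beta in the extracellular matrix, held 5: exons of 123, 165, 126 and 192 nt were lower with RBM25 by differences of -11.3 to -14.6 points, and a 120 nt exon was higher by 20.4 points (adjusted p = 3.79e-05). Exons of 1 gene share transcripts and are not independent.

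The range of PSI over the 12 libraries had a median of 18.3 points, 2012 exons (43.0%) ranged over at least 20, and 178 exons (3.80%) ranged over at least 40. Among exons with at least 100 reads in every library, MYO9B ranged from 36.1 to 97.1, SNHG5 from 38.6 to 90.01, KMT2B over 47.1 points, GIGYF1 over 45.8 and SDCCAG3 over 44.0. At the other end, a 99 nt exon of EIF3K, a translation initiation subunit, stayed between 84.3 and 87.1 in all 12 libraries. A 36 nt exon of DMKN (8.85 to 12.5), a 57 nt exon of EPB41, a membrane skeleton protein (9.78 to 13.4), a 30 nt exon of the kinase MAPK12 (77.7 to 81.4) and a 45 nt exon of SLC25A39, a mitochondrial carrier (85.5 to 89.3), were nearly as steady.

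Exon inclusion and the level of the host gene were separate readouts. Of 3159 host genes in the count table, 3118 were tested with edgeR. Between the effectors 1213 (38.9%) were called at an adjusted p under 0.05, where 36.7% of all genes were (18.0% higher and 18.7% lower), and among the hosts of called exons 206 of 490 (42.04%) were. Only 26 of the 1213 changed at least 2-fold. With RBM25_NT against dCasRx_NT, 241 hosts (7.73%) were called, 126 higher and 115 lower, where 7.62% of all genes were (3.88% higher and 3.74% lower). This count was 255 without dCasRx_NT replicate 1, 77 without dCasRx_NT replicate 2, 48 without RBM25_NT replicate 1 and 169 without RBM25_NT replicate 2. Among the hosts of the exons called with RBM25_NT, 19 of 163 (11.7%) were called, 15 higher and 4 lower. RHOC, whose exon appeared with RBFOX1N, differed by -1.88 on the log2 scale between the RBM25 and the RBFOX1N libraries (SE 0.09, edgeR adjusted p = 1.68e-08). MYO9B differed by -0.13 (SE 0.08, edgeR adjusted p = 0.210).

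With RBFOX1N_NT against dCasRx_NT, 335 hosts (10.7%) were called, where 10.8% of all genes were (7.52% higher and 3.25% lower), and among the hosts of called exons 41 of 190 (21.6%) were, 40 of them higher and 1 lower. Among all hosts of frame-keeping exons 263 were higher and 72 lower. FLNA rose by 0.79 (SE 0.12; adjusted p = 0.00127) and KMT2B by 0.91 (SE 0.13; adjusted p = 0.000686) while their exons fell in PSI, and RHOC rose by 1.13 (SE 0.12; adjusted p = 0.000101). Exon and host gene differed in the same direction for 69 of 208 called exons (33.2%). The like counts were 63 of 170 (37.1%) with RBM25_NT against dCasRx_NT and 246 of 541 (45.5%) between the effectors. For the 140 exons with lower PSI under RBFOX1N_NT the median host change was 0.19 on the log2 scale, and 109 hosts were above 0. For the 68 with higher PSI it was 0.04, and 38 were above 0. The host count fell to 114 without dCasRx_NT replicate 2, 123 without RBFOX1N_NT replicate 1 and 87 without RBFOX1N_NT replicate 2, and was 395 without dCasRx_NT replicate 1.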

How the data were processed

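Poly(A) RNA-seq of 12 HEK293T libraries was analysed. The authors deposited a splicing table with the percent spliced in of each event and library, and beside it a text field that holds quality scores and corrected inclusion and exclusion reads, per the file headers; 99.99% of 5087702 percents lay within 0.05 points of those reads. The authors also deposited whole-number read counts per gene, not normalized. Per the submitters' processing notes, STAR 2.7.10, edgeR and hg38 were used, with no role stated. Whether counting used strand is not given in the sources, so overlapping and antisense genes are uncertain; nor is the version of the splicing tool.

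Inclusion and exclusion reads were fitted by quasi-binomial logistic regression on 6 group means, over all 100383 events with at least 20 reads in every library and at least 24 of the less used form in all (numpy 2.4.6, scipy 1.17.1), with dispersions moderated across events, not below 1, and 6 residual degrees of freedom; p-values were Benjamini-Hochberg adjusted over all events. The test is on the logit scale, and differences and SE are in PSI points. Host genes were tested with edgeR 4.0.16 (TMM, filterByExpr, glmQLFit and glmQLFTest; 20593 genes); expression levels are CPM. An exact permutation test of 2 libraries against 2 cannot go below p = 0.333, and of 4 against 4 not below 0.0286. Alternatives were limma 3.58.1 on logit PSI, DESeq2 1.42.0, other read minimums, PSI limits and differences, and leaving out each library. Exons were placed by exact ends in GENCODE release 29. Both models were tested on simulated data.

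The exons and lists were chosen with earlier results of these data known. Exons were named as both guide targets; as up to 12 (effectors compared) or 8 (against dCasRx_NT) called exons each way with the largest difference, libraries not overlapping, 1 per gene; as up to 4 per list; and by the limits of the choice and of the PSI range. Exons without a gene symbol are given by counts only, apart from the largest difference. Some results are not reported here.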

Additional observations from a re-analysis of the deposited data

How the results depend on the processing

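The comparison of the effectors gave 551 exons, 458 to 516 with 1 library left out at a time (392 to 442 of them among the 551), 957 exons at 5 points, 264 at 15 points, 336 with a mean PSI of 20 to 80, 333 with the NT guide only and 229 by limma. RBM25_NT against dCasRx_NT gave 172 exons, and 60 in a fit of only these groups, 89 at 15 points, 81 with a mean PSI of 20 to 80, 7 by limma and 66 to 107 without 1 library. RBFOX1N_NT against dCasRx_NT gave 213, and 106, 127, 122, 24 and 83 to 139 in the same settings. For the guides, limma and a mean PSI of 20 to 80 (which drops MAPT exon 10 from the class) each gave 0 in place of 1 for RBM25_MAPT; limma gave MAPT exon 10 39.8 points with an adjusted p of 0.226, and RBFOX1N_MAPT gave 0 to 1 exons without 1 library. Host genes called with RBM25_NT numbered 241 (126 higher and 115 lower), 362 (260 higher) with no filter on low counts and 48 to 255 without 1 library, and with RBFOX1N_NT 335, and 87 to 395 without 1 library. None of the named exons and guide targets turned in direction under these alternatives; direction was not followed for the other called exons and the host genes. With a library left out, the lone one of its group is assumed to vary like the other groups. The causes of these shifts were not tested.

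In PSI the replicate numbers did not pair the libraries. Across 15 pairs of groups, same-numbered libraries correlated in their PSI deviations at -0.03 to 0.03 over all events and at -0.06 to 0.08 over the frame-keeping exons. In log2 CPM the correlations ran from -0.22 to 0.51, with 5 of 15 over 0.1, so the host gene counts under the block (1331, 351 and 447 for 1213, 241 and 335) are given as well. With the replicate number as a block, CD46 exon 13 passed the threshold (-18.4 points, adjusted p = 0.0463), so that RBM25_CD46 gave 1 exon in place of 0, and 4 of 16 named exons for RBM25_NT and 2 of 16 for RBFOX1N_NT lost their call; the effector counts were 535, 157 and 202, and no other count moved by over 1.5 times. Depth limits the calls: the median exon had 133.5 reads, and an exon could enter with 20 in a library.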
